A study of Mus musculus with 20 samples.

Results

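Monocytes and macrophages were followed through 33 genes that mark these cells or carry out their functions, in bulk RNA of mouse ear pinnae. The 33 were given by symbol and looked up among the 16669 genes of the deposited table, and all 33 were present. The right ear had received 10 µl intradermally. Cytokine groups were given IL-4, IL-13 or, in the last of them, IL-31, each diluted in PBS to 0.1 µg/µl, and controls were given PBS alone, with 5 libraries in each of the 4 groups. Every ear, controls included, was therefore injected. The strain, age and sex of the mice, the time between injection and harvest, and whether libraries are from separate animals are not stated in the sources used here. The p-values therefore reflect only how far these libraries spread. IL-4 and IL-13 belong to type 2 immunity and share a receptor chain, and IL-31 is a cytokine linked to itch.

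Monocytes are made in bone marrow under the transcription factor PU.1 and the CSF1 receptor, circulate in blood, and enter tissue through chemokine receptors such as CCR2. In skin they join resident dermal macrophages, which take up debris, immune complexes and dying cells. Both cell types read their surroundings through Fc receptors and C-type lectins. Many of these receptors have no signalling tail of their own and rely on the adaptors Fcer1g and Tyrobp, which carry an activating motif, while receptors such as Fcgr2b, Sirpa and Lilrb4a carry an inhibitory one. IL-4 and IL-13 are known to change the state of macrophages, and both are also read by keratinocytes, fibroblasts and sensory neurons.

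PU.1, the product of the member Spi1, binds DNA with the core GAGGAA, so the sequence before the RefSeq start is shown for the 4 of them with the smallest adjusted p in IL-4 against PBS that had an upstream window in the RefSeq table lying almost wholly outside the annotated gene. Each is 250 bases before the RefSeq start on GRCm38.p6, read 5′ to 3′ on the gene's strand, with GAGGAA or its reverse complement TTCCTC in capitals. Aif1 (chr17:35176053-35176302, minus strand) encodes an actin-bundling protein of macrophages, Fcgr1 (chr3:96293970-96294219, minus strand) the high-affinity IgG receptor, Stab1 (chr14:31168642-31168891, minus strand) a scavenger receptor, and Fcer1g (chr1:171234350-171234599, minus strand) the adaptor of several Fc receptors.
Aif1: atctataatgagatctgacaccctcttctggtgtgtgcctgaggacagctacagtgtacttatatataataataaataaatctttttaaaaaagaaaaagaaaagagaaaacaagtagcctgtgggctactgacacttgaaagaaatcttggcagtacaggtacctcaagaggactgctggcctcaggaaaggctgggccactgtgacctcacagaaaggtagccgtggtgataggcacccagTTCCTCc
Fcgr1: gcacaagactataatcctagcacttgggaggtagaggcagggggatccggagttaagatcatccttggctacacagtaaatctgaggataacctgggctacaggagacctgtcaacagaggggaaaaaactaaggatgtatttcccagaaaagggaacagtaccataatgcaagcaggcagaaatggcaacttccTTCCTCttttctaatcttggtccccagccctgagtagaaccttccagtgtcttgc
Stab1: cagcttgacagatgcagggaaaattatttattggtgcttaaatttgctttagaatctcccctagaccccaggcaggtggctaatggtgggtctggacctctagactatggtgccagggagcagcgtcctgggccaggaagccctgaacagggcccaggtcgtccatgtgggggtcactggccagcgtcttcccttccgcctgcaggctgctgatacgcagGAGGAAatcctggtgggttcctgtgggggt
Fcer1g: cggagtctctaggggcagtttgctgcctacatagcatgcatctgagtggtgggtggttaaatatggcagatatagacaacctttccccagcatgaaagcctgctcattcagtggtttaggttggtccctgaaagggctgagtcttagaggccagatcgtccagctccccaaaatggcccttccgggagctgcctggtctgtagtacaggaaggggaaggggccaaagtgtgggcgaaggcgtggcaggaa
The core began 7 bases before the start in Aif1, 55 in Fcgr1 and 30 in Stab1. In Aif1 the 16 bases nearest the RefSeq start, the core among them, lie inside the annotated gene. Fcer1g did not hold these letters in this window. Of the 33 members 24 had a window, and 11 of the 24 (45.8%) held the core on either strand, among them Fcgr3, Itgam, Cd68, Laptm5, Ptprc, Plac8, Trem2 and Ctss. For 9 of the 24 the window lay by more than 30 bases inside the member's own GENCODE gene, which starts earlier than the RefSeq start used here. These 9 include 4 of the 11 with the core, namely Fcgr3 and Ptprc (all 250 bases inside), Laptm5 (191) and Plac8 (40). Of the other 15 windows 7 (46.7%) held it, Aif1 among them. The same letters stood in 22.9% of the windows of the 11821 tested genes that had one, and in 23.1% of all 27025 windows. A match in these letters is a description of sequence and does not show that PU.1 binds there. Windows of Adgre1, Csf1r, Cd14, Lilrb4a, Msr1, Clec4n, Sirpa, Spi1 and Tyrobp were not analysed here.

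Levels are log2 CPM, read counts scaled to library size on a log2 scale, as the authors deposited them. Differences are log2 fold changes ± SE, and each adjusted p comes from limma over 16461 tested genes, with 0.05 as the threshold. Effective library sizes were estimated from the step of 1 read among the low values. These estimates ran between 6.11 and 23.73 M reads (M, mega), with a median of 12.98 M, and by them 3 reads corresponded to 0.126 to 0.491 CPM. PBS replicate 5 stood apart, with the highest of the 20 values in 26 of the 33 members. The libraries also fell into groups of their own by neutrophil markers, which were high in 9 of them, and PBS replicates 1, 2 and 3 had epidermal barrier scores of -1.44, -1.80 and -2.48, against 0.11 and 0.18 in PBS replicates 4 and 5. Member results are also given without PBS replicate 5 and without PBS replicates 1, 2 and 3. They are given as well with the neutrophil markers as a covariate. The other gene lists were fitted with all 20 libraries only. A bulk value cannot tell fewer cells of a type and less RNA per cell apart.

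In PBS ears the members covered a wide span of expression. Per kilobase of exon, Lyz2, the lysozyme of myeloid cells, was highest at 172 ± 89.5 CPM per kb (SD, n = 5). Cd14, the coreceptor for lipopolysaccharide, followed at 103 ± 110 CPM per kb, and its 5 PBS libraries lay between 4.71 and 274 CPM per kb. Ctss, which encodes the protease cathepsin S, was at 68.4 ± 42.8 CPM per kb, Tyrobp at 52.8 ± 26.4 and Fcer1g at 34.4 ± 13.6. The ranges of neighbours in this order overlapped. Csf1r, the receptor of CSF1 and IL-34, was at 13.6 ± 4.53 CPM per kb and Spi1 at 8.6 ± 2.69. At the lower end stood Msr1, a class A scavenger receptor, at 1.61 ± 1.97 CPM per kb, and Cx3cr1, the fractalkine receptor, at 0.638 ± 0.249. All 33 members passed the filter on low values.

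The members did not vary alike. Over the 20 libraries Mertk, a receptor for dying cells, spanned only 0.84 log2 units, and Sirpa, Csf1r and Laptm5 spanned 1.25, 1.34 and 1.42. Fcgr1 spanned 7.15 units, Cd14 6.65 and Plac8 5.35. The map of all members by library shows PBS replicate 5 above the gene means in nearly every row and most IL-4 and IL-13 replicates below them.

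**Figure D1:**
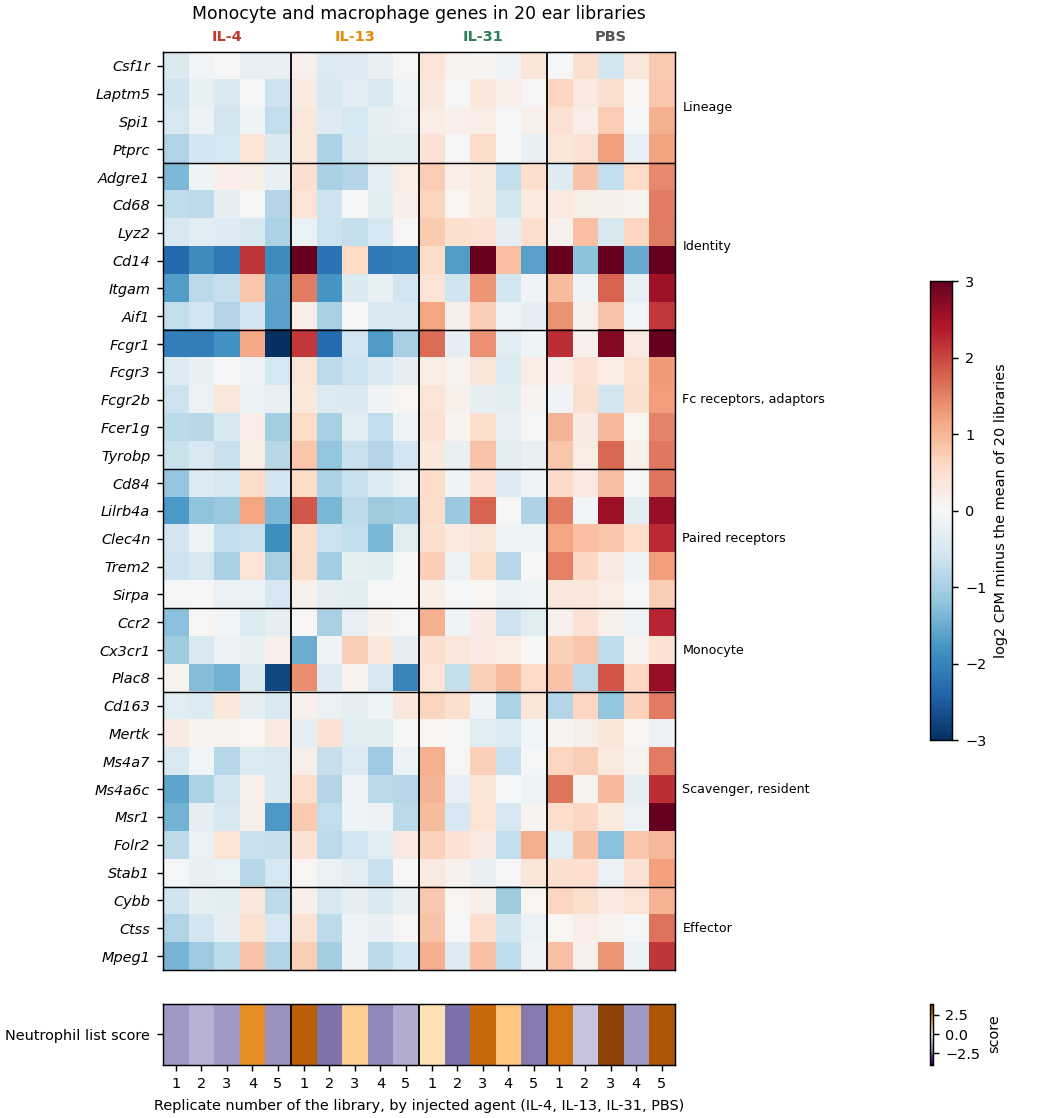
Rows are the 33 members by role, columns are the 20 libraries by injected agent and replicate number, and colour is log2 CPM minus that gene's mean over the 20 libraries, with values beyond 3 drawn at the end of the scale; the strip below is the neutrophil list score. PBS replicate 5 is high in most rows, and Cd14, Itgam, Fcgr1 and Lilrb4a are high in most of the libraries with a high neutrophil score.

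After IL-4, 23 of the 33 members were lower than in PBS, none was higher and 10 did not pass. The 23 are 69.7% of the members, where 9.63% of all tested genes were lower in this comparison and 8.22% higher. The median log2 fold change of the members was -1.0, against -0.02 over all tested genes. In 7 members, Aif1, Cd68, Clec4n, Fcgr3, Laptm5, Ms4a7 and Spi1, all 5 IL-4 libraries lay below all 5 PBS libraries, and 5.89% of the tested genes separated that way. After IL-13, 16 members were lower and none was higher, 48.5% of the members where 9.80% of tested genes were lower and 9.94% higher, with a median of -0.94 against -0.03 over all tested genes. Only Cybb separated without overlap in IL-13, where 5.01% of tested genes lay wholly below PBS. After IL-31 no member passed, where 1.20% of tested genes were lower and 5.18% higher, and the median was -0.46 against -0.04 over all tested genes. At an unadjusted p under 0.05 the IL-31 comparison had 4 members, Clec4n, Cybb, Sirpa and Tyrobp, all on the lower side, or 12.1% of the members where 23.8% of tested genes had such a p. The 3 comparisons share the same PBS libraries and are therefore not independent of each other.

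**Figure D2:**
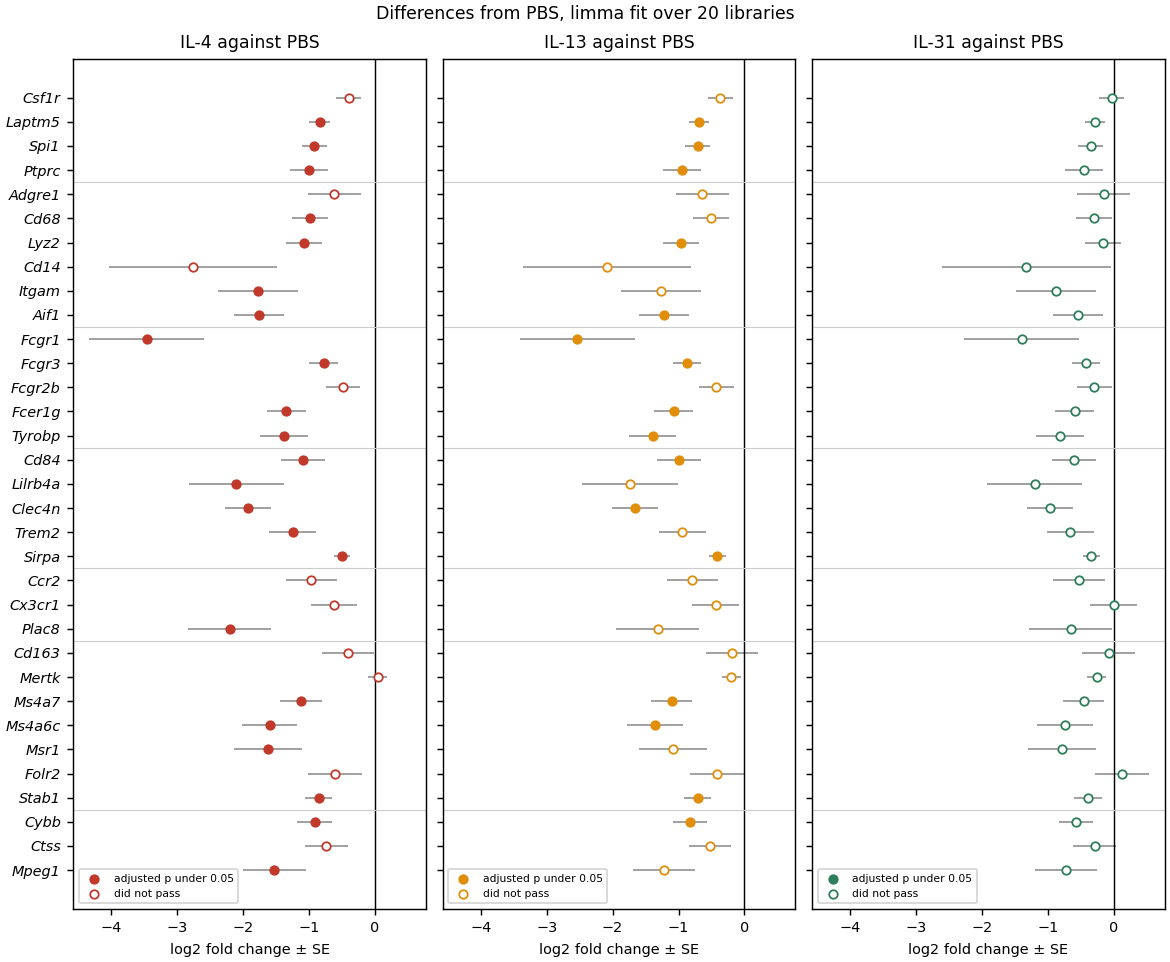
Each panel gives the log2 fold change of every member (rows, by role) for IL-4, IL-13 or IL-31 against PBS, with bars of 1 SE from the limma fit of 20 libraries; filled points passed at an adjusted p under 0.05. The filled points number 23 in IL-4, 16 in IL-13 and 0 in IL-31, all left of 0.

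Of the 4 genes of lineage and leukocyte identity, 3 fell in IL-4 and the same number fell in IL-13. Spi1 (chr2:91082390-91115756, plus strand, GRCm38, protein-coding) stood at 3.47, 3.82, 3.43, 3.87 and 3.24 log2 CPM in IL-4 replicates 1 to 5. It was at 4.33, 3.60, 3.46, 3.69 and 3.79 log2 CPM in IL-13, and at 4.22, 4.15, 4.22, 3.95 and 4.14 in IL-31. The PBS libraries held 4.46, 4.20, 4.76, 3.94 and 5.07 log2 CPM. Every IL-4 value was thus under the lowest PBS value, while IL-13 replicate 1 lay within the PBS range. Its log2 fold change was -0.92 ± 0.19 in IL-4 (adjusted p = 0.00369), -0.71 ± 0.19 in IL-13 (adjusted p = 0.0135) and -0.35 ± 0.19 in IL-31 (adjusted p = 0.263).

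Laptm5 (chr4:130913125-130936141, plus strand), a lysosomal membrane protein of blood cells, had 5.13, 5.50, 5.28, 5.69 and 5.11 log2 CPM in IL-4. In IL-13 it had 6.0, 5.26, 5.38, 5.26 and 5.57 log2 CPM, and in IL-31 6.08, 5.73, 6.05, 5.87 and 5.77. PBS libraries were at 6.38, 6.0, 6.20, 5.80 and 6.53 log2 CPM. The IL-4 libraries again lay below all PBS libraries, and IL-31 overlapped with PBS. Laptm5 fell by 0.84 ± 0.15 on the log2 scale in IL-4 (adjusted p = 0.00195) and by 0.69 ± 0.15 in IL-13 (adjusted p = 0.00553). Ptprc, which encodes the pan-leukocyte phosphatase CD45, fell by 1.00 ± 0.29 in IL-4 (adjusted p = 0.0207) and by 0.95 ± 0.29 in IL-13 (adjusted p = 0.0248), the IL-4 call being lost without PBS replicate 3 and the IL-13 call without PBS replicate 3, IL-13 replicate 2 or IL-13 replicate 3.

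Csf1r (chr18:61100598-61132149, plus strand) did not pass in any cytokine, and 15.1% of its exonic bases overlap exons of Hmgxb3. It was at 5.58, 5.94, 6.04, 5.77 and 5.78 log2 CPM in IL-4, and at 6.17, 5.62, 5.63, 5.80 and 6.07 in IL-13. IL-31 libraries held 6.43, 6.13, 6.10, 5.91 and 6.38 log2 CPM, and PBS libraries 5.96, 6.51, 5.47, 6.36 and 6.81. The PBS group was the widest of the 4, and PBS replicate 3 was the lowest of all 20 libraries. The log2 fold changes were -0.40 ± 0.19 in IL-4 (adjusted p = 0.146), -0.37 ± 0.19 in IL-13 (adjusted p = 0.176) and -0.03 ± 0.19 in IL-31 (adjusted p = 0.923). Without PBS replicate 3 they were -0.59 in IL-4 (adjusted p = 0.0163) and -0.55 in IL-13 (adjusted p = 0.0226), both past the threshold.

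Among 6 common identity markers, 4 fell in IL-4 and 2 in IL-13. Aif1 (chr17:35170991-35176068, minus strand), known as Iba1, had 1.06, 1.25, 0.94, 1.25 and 0.18 log2 CPM in IL-4, and 2.01, 0.83, 1.82, 1.35 and 1.37 in IL-13. IL-31 libraries were at 3.00, 1.99, 2.56, 1.67 and 1.52 log2 CPM, against 3.16, 1.97, 2.68, 1.73 and 3.94 in PBS. No IL-4 value reached the PBS range, and the IL-31 values overlapped with it. Aif1 fell by 1.76 ± 0.38 in IL-4 (adjusted p = 0.00446) and by 1.22 ± 0.38 in IL-13 (adjusted p = 0.0285), and its difference in IL-31 was -0.54 ± 0.38 (adjusted p = 0.377).

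Lyz2 averaged 6.58 ± 0.25 log2 CPM in IL-4 and 6.71 ± 0.32 in IL-13, against 7.66 ± 0.78 in PBS (SD, n = 5 each), and fell by 1.08 ± 0.27 in IL-4 (adjusted p = 0.0113) and by 0.96 ± 0.27 in IL-13 (adjusted p = 0.0195). It has a near copy, Lyz1, so its count may share reads with that gene. In IL-31 Lyz2 averaged 7.50 ± 0.39 log2 CPM, within the PBS range. Cd68, a lysosomal glycoprotein, was between 3.32 and 4.20 log2 CPM in IL-4 and between 4.27 and 5.72 in PBS, and fell by 0.99 ± 0.27 (adjusted p = 0.0178), while its difference in IL-13 was -0.51 ± 0.27 (adjusted p = 0.196). Itgam, the CD11b integrin of monocytes, macrophages and neutrophils, fell by 1.77 ± 0.61 in IL-4 (adjusted p = 0.0485), a call lost without any one of PBS replicates 1, 3 and 5 or IL-4 replicates 1, 2, 3 and 5. Exons of the predicted gene Gm49368 overlap 68.7% of the exonic bases of Itgam, so its count is uncertain. Adgre1, which encodes F4/80, did not pass (-0.62 ± 0.40 in IL-4, adjusted p = 0.315), and neither did Cd14 (-2.77 ± 1.28 in IL-4, adjusted p = 0.143).

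**Figure D3:**
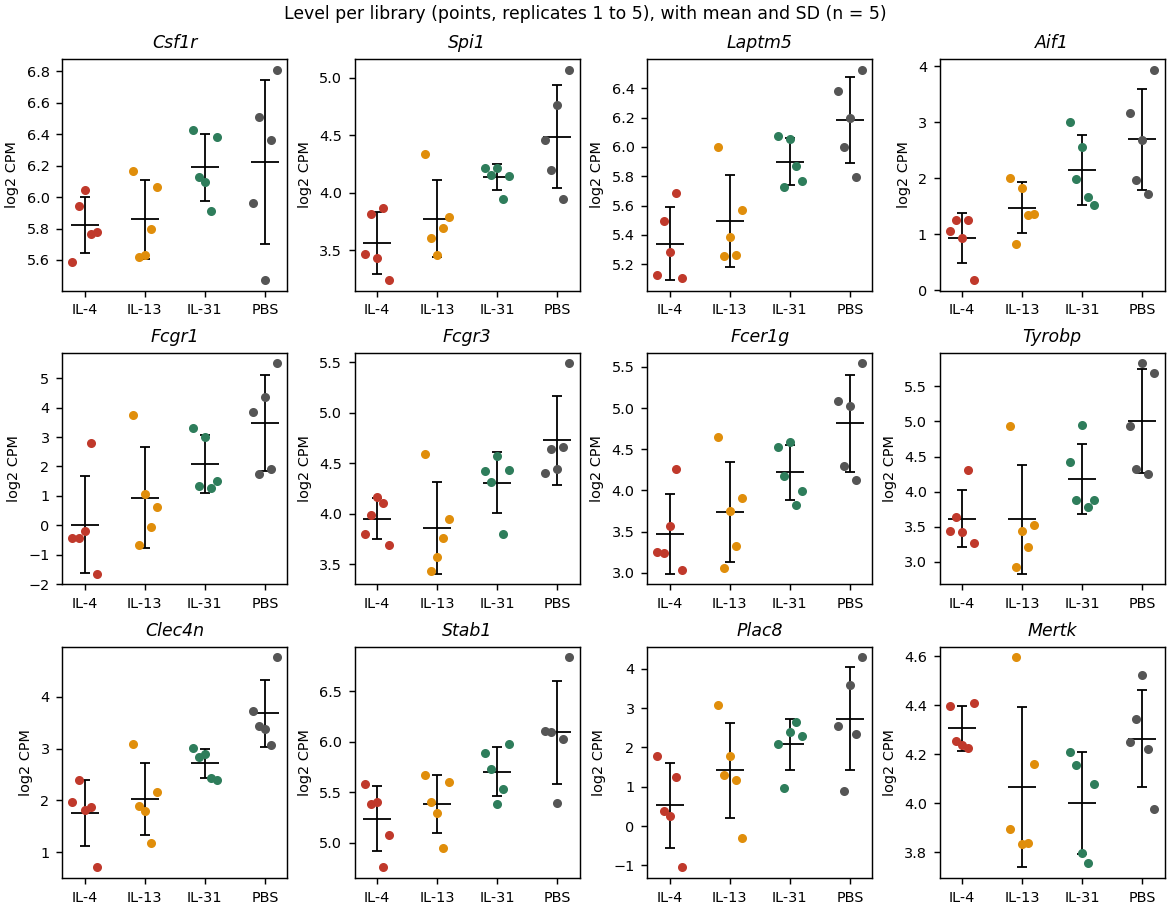
Log2 CPM of 12 members in each library (points, in order of replicate number) after each cytokine and after PBS, with the mean and SD of 5 libraries; each panel has its own scale. IL-4 points of Spi1, Laptm5, Aif1, Fcgr3 and Clec4n lie below every PBS point, Csf1r overlaps in all groups, and Mertk stays within 0.84 log2 units.

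Of the 5 Fc receptors and adaptors, 4 fell in IL-4 and 4 in IL-13. The exception in both was Fcgr2b, the inhibitory IgG receptor (-0.49 ± 0.26 in IL-4, adjusted p = 0.213, and -0.42 ± 0.26 in IL-13, adjusted p = 0.264). Fcgr1 (chr3:96282909-96293969, minus strand) had the largest fitted fall of all members. It was at -0.44, -0.44, -0.19, 2.78 and -1.65 log2 CPM in IL-4 replicates 1 to 5, and at 3.75, -0.69, 1.06, -0.07 and 0.64 in IL-13. IL-31 libraries held 3.31, 1.35, 2.99, 1.26 and 1.49 log2 CPM, and PBS libraries 3.84, 1.76, 4.37, 1.91 and 5.50. IL-4 replicate 4 and IL-13 replicate 1 lay in the PBS range, and IL-4 replicate 5 was below the level of 3 reads. The log2 fold change was -3.46 ± 0.87 in IL-4 (adjusted p = 0.0105), -2.54 ± 0.87 in IL-13 (adjusted p = 0.0456) and -1.40 ± 0.87 in IL-31 (adjusted p = 0.328). The IL-13 call was lost in 7 of 10 omissions of a single library. The offset in the deposited logarithm makes such a change in a low gene smaller than it is in CPM.

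Fcgr3 (chr1:171051174-171064935, minus strand), an activating low-affinity IgG receptor, had 3.80, 3.98, 4.16, 4.11 and 3.69 log2 CPM in IL-4, and 4.59, 3.43, 3.57, 3.76 and 3.95 in IL-13. It had 4.42, 4.31, 4.57, 3.80 and 4.43 log2 CPM in IL-31, against 4.41, 4.64, 4.44, 4.67 and 5.49 in PBS. All IL-4 values were below all PBS values, and in IL-13 replicate 1 alone reached them. Fcgr3 fell by 0.78 ± 0.22 in IL-4 (adjusted p = 0.0178) and by 0.87 ± 0.22 in IL-13 (adjusted p = 0.00921).

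Fcer1g (chr1:171229572-171234365, minus strand) had 3.26, 3.24, 3.58, 4.26 and 3.03 log2 CPM in IL-4, and 4.65, 3.06, 3.75, 3.32 and 3.91 in IL-13. In IL-31 it had 4.52, 4.17, 4.59, 3.82 and 4.00 log2 CPM, and in PBS 5.08, 4.30, 5.03, 4.13 and 5.54. Each cytokine group overlapped with the lower part of the PBS range. Fcer1g fell by 1.34 ± 0.30 in IL-4 (adjusted p = 0.00551) and by 1.08 ± 0.30 in IL-13 (adjusted p = 0.0166), with -0.59 ± 0.30 in IL-31 (adjusted p = 0.232).

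Tyrobp (chr7:30413760-30417585, plus strand), which encodes the adaptor DAP12, had 3.43, 3.64, 3.43, 4.32 and 3.27 log2 CPM in IL-4, and 4.93, 2.92, 3.44, 3.22 and 3.53 in IL-13. It held 4.43, 3.88, 4.95, 3.79 and 3.88 log2 CPM in IL-31, against 4.93, 4.32, 5.83, 4.25 and 5.69 in PBS. IL-4 replicate 4 and IL-13 replicate 1 were the highest of their groups, as for Fcer1g. Its log2 fold change was -1.39 ± 0.36 in IL-4 (adjusted p = 0.0127) and -1.39 ± 0.36 in IL-13 (adjusted p = 0.0114), and IL-31 stood at -0.82 ± 0.36 (adjusted p = 0.175).

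All 5 paired receptors fell in IL-4, and 3 of them, Clec4n, Sirpa and Cd84, fell in IL-13. Clec4n (chr6:123229843-123247021, plus strand) encodes dectin-2, a lectin that binds fungal mannans and signals through Fcer1g. It was at 1.98, 2.40, 1.81, 1.87 and 0.70 log2 CPM in IL-4, and at 3.09, 1.90, 1.79, 1.18 and 2.17 in IL-13. In IL-31 it was at 3.01, 2.83, 2.90, 2.43 and 2.39 log2 CPM, against 3.74, 3.45, 3.38, 3.07 and 4.77 in PBS. The IL-4 and the IL-31 libraries all lay below the PBS libraries, and in IL-13 replicate 1 alone exceeded the lowest of them. In IL-31, 1.43% of tested genes separated that way, and Clec4n was the sole member to do so. Its log2 fold change was -1.93 ± 0.35 in IL-4 (adjusted p = 0.00176), the smallest adjusted p of any member, -1.66 ± 0.35 in IL-13 (adjusted p = 0.00362) and -0.97 ± 0.35 in IL-31 (adjusted p = 0.0993).

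Sirpa, the receptor of the CD47 signal that inhibits phagocytosis, had the smallest change of the members that passed, -0.50 ± 0.13 in IL-4 (adjusted p = 0.0118) and -0.41 ± 0.13 in IL-13 (adjusted p = 0.0296). In IL-31 it stood at -0.34 ± 0.13 (adjusted p = 0.114), or -0.43 with an adjusted p of 0.0297 without PBS replicate 4. Trem2, a lipid-sensing receptor that signals through Tyrobp, fell by 1.25 ± 0.36 in IL-4 (adjusted p = 0.0208) and was at -0.94 ± 0.36 in IL-13 (adjusted p = 0.0686). Cd84, a receptor of the SLAM family, fell by 1.09 ± 0.33 in IL-4 and by 1.00 ± 0.33 in IL-13, calls lost in 6 and 7 of 10 omissions of 1 library. Lilrb4a, an inhibitory receptor with a near copy Lilr4b and exons that overlap Gm49339 and Gm40645, is uncertain as counted. It fell by 2.10 ± 0.72 in IL-4, with an adjusted p of 0.0491 just under the threshold, a call lost in 7 of 10 such omissions, and was at -1.74 ± 0.72 in IL-13 (adjusted p = 0.0967).

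Of the 3 genes of circulating or entering monocytes, only Plac8 fell, in IL-4. Plac8 (chr5:100553725-100572245, minus strand), a transcript abundant in inflammatory monocytes, had 1.79, 0.40, 0.26, 1.25 and -1.05 log2 CPM in IL-4 and 3.09, 1.31, 1.79, 1.18 and -0.29 in IL-13. IL-31 libraries were at 2.09, 0.97, 2.40, 2.65 and 2.29 log2 CPM, against 2.55, 0.89, 3.59, 2.34 and 4.30 in PBS. PBS replicate 2 lay among the IL-4 values, and IL-4 replicate 5 was below the level of 3 reads. Plac8 fell by 2.21 ± 0.63 in IL-4 (adjusted p = 0.0207), a call lost without IL-4 replicate 5 or without PBS replicate 3, and was at -1.32 ± 0.63 in IL-13 (adjusted p = 0.147). Ccr2, the receptor of the chemokine CCL2, was at -0.96 ± 0.39 in IL-4 (adjusted p = 0.0916), with PBS values between 4.09 and 6.51 log2 CPM. Cx3cr1 was at -0.62 ± 0.35 in IL-4 (adjusted p = 0.244).

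Among 7 scavenger receptors and resident macrophage genes, 4 fell in IL-4 and 3 in IL-13. Stab1 (chr14:31139013-31168641, minus strand), which encodes stabilin-1, had 5.58, 5.38, 5.40, 4.75 and 5.07 log2 CPM in IL-4, and 5.67, 5.40, 5.30, 4.94 and 5.6 in IL-13. IL-31 libraries were at 5.88, 5.73, 5.38, 5.54 and 5.98 log2 CPM, against 6.10, 6.10, 5.40, 6.03 and 6.84 in PBS. PBS replicate 3 alone lay among the IL-4 and IL-13 values. Stab1 fell by 0.86 ± 0.21 in IL-4 (adjusted p = 0.00897) and by 0.71 ± 0.21 in IL-13 (adjusted p = 0.0218).

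Ms4a7 and Ms4a6c, members of a family of membrane-spanning proteins, fell by 1.12 ± 0.31 and 1.60 ± 0.42 in IL-4, and by 1.10 ± 0.31 and 1.35 ± 0.42 in IL-13. Exons of BE692007 overlap 53.1% of the exonic bases of Ms4a6c, so its count is uncertain. Msr1 fell in IL-4 (-1.62 ± 0.51, adjusted p = 0.0332) and was at -1.09 ± 0.51 in IL-13 (adjusted p = 0.142). The remaining 3 did not pass in any cytokine. Cd163, the haemoglobin scavenger receptor, was at -0.41 ± 0.40 in IL-4, and Folr2, a folate receptor of resident macrophages, at -0.61 ± 0.41. Exons of Gm10602 overlap 63.1% of the exonic bases of Folr2, so its count is uncertain. Mertk differed least, with values between 4.22 and 4.41 log2 CPM in IL-4 and between 3.98 and 4.52 in PBS, a log2 fold change of 0.04 ± 0.14 and a 95% interval of -0.25 to 0.34.

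Of the 3 effector genes, Cybb and Mpeg1 fell in IL-4 and Cybb fell in IL-13. Cybb, the catalytic subunit of the phagocyte NADPH oxidase, was between 3.33 and 4.01 log2 CPM in IL-13, all below the PBS values of 4.07 to 4.87. It fell by 0.83 ± 0.26 there (adjusted p = 0.0317), a call lost in 7 of 10 omissions of 1 library, and by 0.92 ± 0.26 in IL-4 (adjusted p = 0.0208). Mpeg1, a pore-forming protein of phagocytes, fell by 1.53 ± 0.48 in IL-4 (adjusted p = 0.0318), a call also lost in 7 of 10. Ctss was at -0.74 ± 0.32 in IL-4 (adjusted p = 0.121).

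The cytokines were also compared with each other. IL-4 against IL-13 gave no member past the threshold and no gene among all tested, and no member had an unadjusted p under 0.05, where 4.03% of tested genes did. The members that passed in IL-4 and not in IL-13 are therefore not shown to differ between the cytokines. For Cd68, the member with the smallest p in that comparison, the difference was -0.48 with a 95% interval of -1.05 to 0.09. The intervals ran between -0.36 and 0.18 for Sirpa, the narrowest, and between -3.35 and 1.99 for Cd14, the widest. IL-4 against IL-31 likewise gave no member and no gene past the threshold, with 12 members at an unadjusted p under 0.05, or 36.4% of the members where 10.6% of tested genes had such a p. In this comparison Aif1, Laptm5, Lyz2 and Spi1 were lower in every IL-4 library than in every IL-31 library, where 1.76% of tested genes separated that way, and Mertk was higher in every IL-4 library, where 2.14% did. IL-13 against IL-31 gave none past the threshold and 2 at an unadjusted p under 0.05, Laptm5 and Lyz2, where 7.29% of tested genes had such a p.

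Leaving out PBS replicate 5 moved most members towards 0. In IL-4, 18 of the members were then lower and none was higher, where 9.76% of tested genes were lower, and all 18 were among the 23. The median was -0.83 in place of -1.0. Itgam, Cd84, Lilrb4a, Mpeg1 and Msr1 no longer passed, with log2 fold changes of -1.39, -0.85, -1.77, -1.21 and -1.06. In IL-13, 10 of the 16 still passed, where 13.1% of tested genes were lower, and the median was -0.71 in place of -0.94. Fcgr1, Aif1, Cd84, Ms4a6c, Cybb and Sirpa did not pass there. Clec4n was at -1.66 in IL-4 (adjusted p = 0.00305) and -1.38 in IL-13 (adjusted p = 0.00495), and Spi1 at -0.77 (adjusted p = 0.00585) and -0.56 (adjusted p = 0.0245). In IL-31 no member passed, where 6.31% of tested genes were lower and 18.4% passed in either direction. The median of the members there was -0.23 in place of -0.46.

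**Figure D4:**
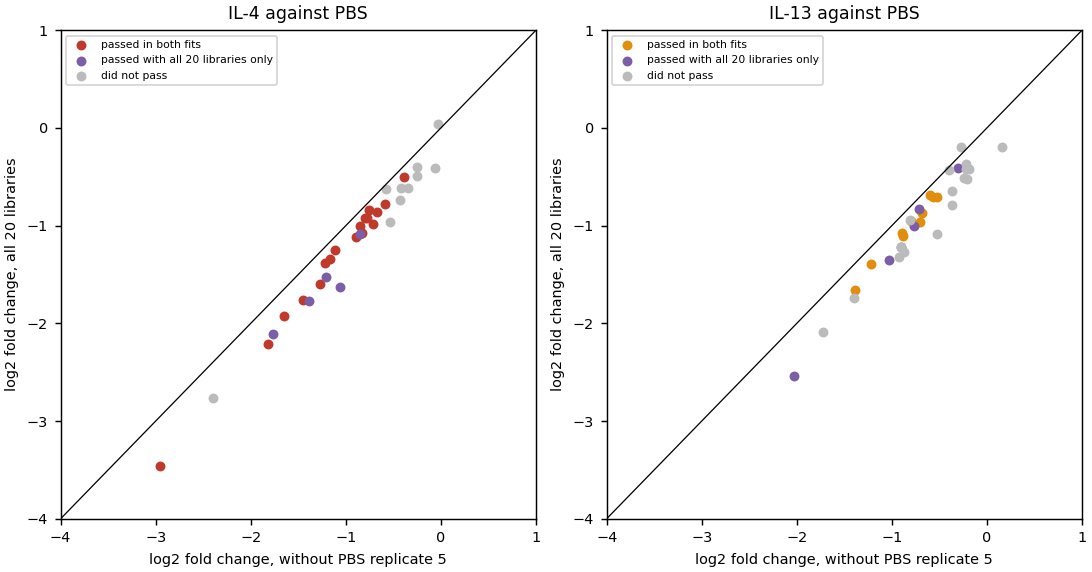
Log2 fold change of each member without PBS replicate 5 (horizontal) and with all 20 libraries (vertical), for IL-4 and IL-13 against PBS; the diagonal marks equal values. In each panel 32 of 33 points lie below the diagonal, and the purple points are the 5 members in IL-4 and the 6 in IL-13 that passed only with PBS replicate 5 included.

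Other single libraries moved the counts as well. In IL-4 the count was 13 without IL-4 replicate 5, the library of smallest estimated size, where 7.02% of tested genes were lower. In IL-13 it was 9 without IL-13 replicate 2, 3 or 4, where 10.9%, 6.46% and 7.30% of tested genes were lower, and 10 without PBS replicate 1, where 8.58% were. Through all 10 omissions of a library of the groups compared, 12 members kept their call in IL-4, namely Lyz2, Fcgr1, Fcer1g, Tyrobp, Aif1, Ms4a7, Ms4a6c, Laptm5, Clec4n, Stab1, Sirpa and Spi1. In IL-13 those that kept it were 6, namely Fcgr3, Fcer1g, Tyrobp, Laptm5, Clec4n and Spi1. The share of all tested genes that kept a call through the same 10 omissions is not given here, so these counts stand without a background. Cd68, Fcgr3 and Cybb lost their IL-4 call only without IL-4 replicate 5, Trem2 lost its in 3 omissions and Msr1 in 4. In IL-13 the calls of Aif1 and Sirpa were lost in 5 omissions each, that of Ms4a6c in 6, those of Lyz2 and Stab1 in 2 each, and that of Ms4a7 in 1. Without PBS replicates 1, 2 and 3 together, 12 members were lower in IL-4, where 4.66% of tested genes were, and 5 in IL-13, where 1.82% were. Csf1r, Cd163 and Fcgr2b were among the 12, with log2 fold changes of -0.76, -1.36 and -1.06. That fit keeps only PBS replicates 4 and 5 as controls, and PBS replicate 5 is the library that stood apart. With PBS replicate 5 left out instead, these genes were at -0.254, -0.061 and -0.25 in IL-4 and did not pass.

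Neutrophil markers moved with part of the members. A list of 18 neutrophil genes, of which 17 were measured and several, such as Il1b and Clec4e, are also made by monocytes, had a score above 0 in 9 libraries. These were IL-4 replicate 4, IL-13 replicates 1 and 3, IL-31 replicates 1, 3 and 4, and PBS replicates 1, 3 and 5. Their scores lay between 0.78 and 3.77, and those of the other 11 libraries between -2.43 and -1.19. The summed level of the list ran from 60.6 to 683 CPM within IL-4, 50.1 to 1246 within IL-13, 58.2 to 1023 within IL-31 and 63.7 to 2523 within PBS. None of the 17 passed in any cytokine against PBS, although 16 of them were below 0 in each. Their median log2 fold change was -2.598 in IL-4, -2.025 in IL-13 and -1.505 in IL-31. The members had medians of -1.005, -0.941 and -0.456 in the same comparisons. Acod1, Stfa2l1, Retnlg, Cxcl3, Clec4e and Mmp8 were at the lowest value of the table in at least 1 library.

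Cd14 followed this split, at 5.12 to 8.89 log2 CPM in the 9 libraries and 2.24 to 3.34 in the other 11. Itgam had 3.01 to 6.08 log2 CPM in the 9 and 1.78 to 3.44 in the 11, and Fcgr1 had 1.06 to 5.50 and -1.65 to 1.91. Spi1 spanned 3.46 to 5.07 log2 CPM in the 9 and 3.24 to 4.20 in the 11, and Csf1r and Mertk covered nearly the same span in both. With the neutrophil score as a covariate, 15 members were lower in IL-4, where 10.5% of tested genes were, and 14 in IL-13, where 11.8% were. Spi1 was then at -0.71 in IL-4 (adjusted p = 0.00584), Laptm5 at -0.63 (adjusted p = 0.000667) and Fcgr1 at -2.15 (adjusted p = 0.00636).

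**Figure D5:**
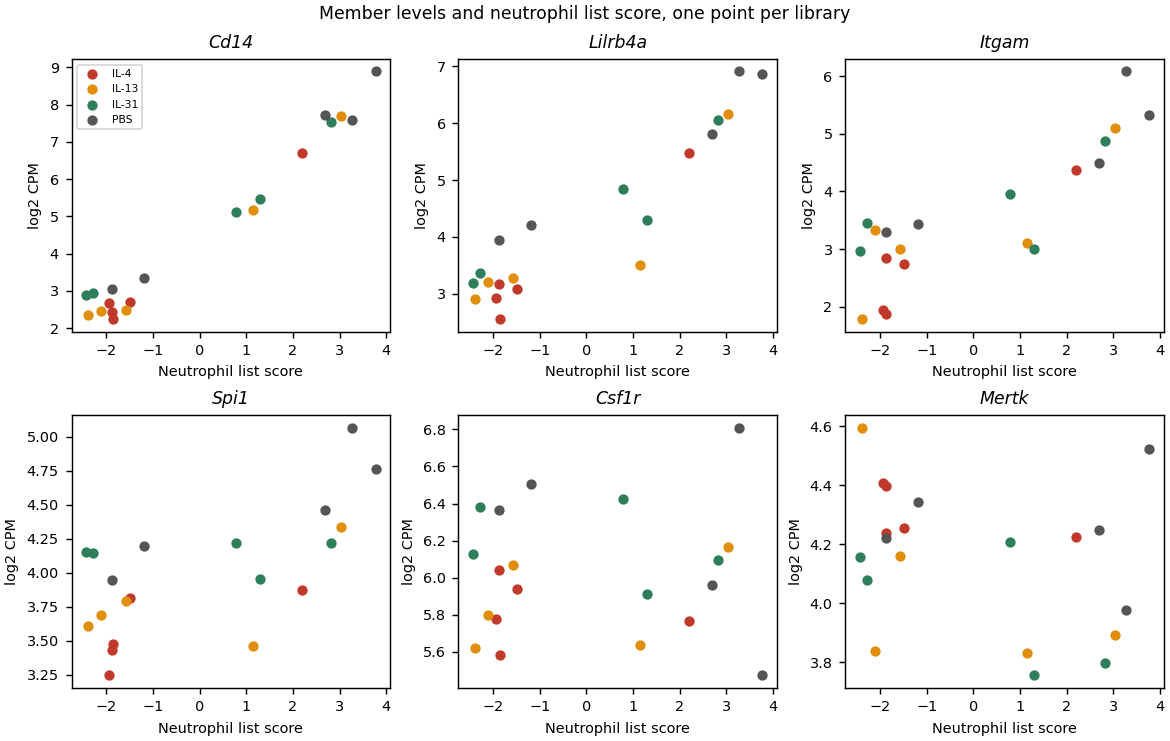
Log2 CPM of 6 members against the neutrophil list score, 1 point per library, coloured by injected agent. Cd14 falls into a high set of 9 libraries and a low set of 11, Lilrb4a and Itgam are higher at higher scores, and Csf1r and Mertk cover nearly the same span in both sets.

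Skeletal muscle transcripts, like the members, were lower in the IL-4 and IL-13 groups than in PBS. Within a group the muscle and member list scores did not always rank the libraries alike. All 21 muscle genes were lower in IL-4 and all 21 in IL-13, and none passed in IL-31, with summed levels of 652 to 5027 CPM in IL-4, 1458 to 5488 in IL-13, 2836 to 12360 in IL-31 and 9209 to 27200 in PBS. Mybpc2 was at the lowest value of the table in at least 1 library. Because every IL-4 and IL-13 library had less muscle RNA than every PBS library, the share of muscle and the cytokine cannot be told apart for these 2 comparisons. With the muscle score as a covariate no member passed, and 0.00607% of all tested genes were lower in IL-4 and the same share in IL-13. In that fit the IL-4 differences were -1.21 ± 0.31 for Spi1 (adjusted p = 0.107), -1.12 ± 0.25 for Laptm5 (adjusted p = 0.0966) and -2.46 ± 0.56 for Clec4n (adjusted p = 0.0992). Csf1r was at -0.10 ± 0.30, and Cd163, Cx3cr1 and Fcgr2b had values above 0, at 0.20, 0.19 and 0.08. Epidermal barrier genes were higher, 14 of 20 in IL-4, 16 in IL-13 and 15 in IL-31, with Lor and Flg2 among them in IL-31 (2.43 ± 0.56 and 2.21 ± 0.53). The barrier scores of PBS replicates 1, 2 and 3 (-1.44, -1.80 and -2.48) were under those of every cytokine library. Those of PBS replicates 4 and 5 (0.11 and 0.18) lay within the range of each cytokine group. Barrier genes were not fitted without PBS replicates 1, 2 and 3.

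Genes that recruit monocytes or sustain macrophages went in both directions. Of 11 measured, 2 rose and 6 fell in IL-4, 2 rose and 2 fell in IL-13, and 1 rose and 1 fell in IL-31. Il34, a ligand of Csf1r that keratinocytes make, rose by 0.53 ± 0.15 in IL-4 (adjusted p = 0.0198) and by 0.65 ± 0.15 in IL-13 (adjusted p = 0.00635). Csf1, the other ligand of Csf1r, named here after its values were seen, fell by 0.59 ± 0.19 in IL-4 (adjusted p = 0.0347) and was at -0.42 ± 0.19 in IL-13 (adjusted p = 0.121) and -0.29 ± 0.19 in IL-31 (adjusted p = 0.353). Cx3cl1, the ligand of Cx3cr1, rose by 0.54 ± 0.13 in IL-4 (adjusted p = 0.00741), by 0.39 ± 0.13 in IL-13 (adjusted p = 0.0366) and by 0.50 ± 0.13 in IL-31 (adjusted p = 0.0284). Ccl2, the ligand of Ccr2, fell by 1.97 ± 0.55 in IL-4 (adjusted p = 0.019). Csf2ra, a chain of the GM-CSF receptor, fell by 0.80 ± 0.20 in IL-4, 0.98 ± 0.20 in IL-13 and 0.78 ± 0.20 in IL-31 (adjusted p = 0.0106, 0.0031 and 0.0287). In IL-13 Csf2rb, the common chain of the GM-CSF, IL-3 and IL-5 receptors, fell by 1.16 ± 0.34 (adjusted p = 0.021).

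The partners of Cybb in the NADPH oxidase fell as well, 5 of 5 in IL-4 and 5 of 5 in IL-13, and 1, Cyba, in IL-31. Cyba, which encodes the membrane subunit bound to Cybb, fell by 1.05 ± 0.17 in IL-4 (adjusted p = 0.00133), 0.82 ± 0.17 in IL-13 (adjusted p = 0.00379) and 0.60 ± 0.17 in IL-31 (adjusted p = 0.0467). Ncf4, a cytosolic subunit, fell by 1.38 ± 0.26 in IL-4 and by 1.14 ± 0.26 in IL-13. Of 18 genes that relay or oppose signals of the paired receptors, 8 fell in IL-4 and 7 in IL-13, none rose, and none passed in IL-31. Dok3 and Lyn, an adaptor and a kinase of these pathways, fell by 0.81 ± 0.19 and 1.36 ± 0.34 in IL-4, and Vav1 and Pirb by 1.13 ± 0.29 and 1.25 ± 0.34 in IL-13.

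Of 12 further monocyte markers, 4 fell in IL-4, 1 in IL-13 and none in IL-31. Ace and Ifitm3 fell by 0.78 ± 0.21 and 0.98 ± 0.31 in IL-4, and Nr4a1, a nuclear receptor needed by patrolling monocytes, by 1.18 ± 0.41 in IL-13. Fcgr4, Ms4a4c and F10 were at the lowest value of the table in at least 1 library. Of 15 further markers of resident macrophages, 5 fell in IL-4, 6 in IL-13 and none in IL-31. The complement genes C1qa and C1qb, which tissue macrophages make, fell by 1.00 ± 0.25 and 1.11 ± 0.30 in IL-4, and C1qa by 0.78 ± 0.25 in IL-13. Cd209g, a lectin, fell by 1.33 ± 0.37 in IL-4 and by 1.53 ± 0.37 in IL-13, and Clec10a, a galactose-binding lectin, by 0.51 ± 0.14 in IL-13.

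Of 15 lysosomal genes 4 were lower in IL-4, 3 in IL-13 and 1 in IL-31. Ctsz, a lysosomal protease, fell by 0.91 ± 0.15 in IL-4, 0.82 ± 0.15 in IL-13 and 0.53 ± 0.15 in IL-31, and Hexa, a lysosomal hydrolase, fell by 0.74 ± 0.13 in IL-4 and 0.76 ± 0.13 in IL-13. Of 11 myeloid transcription factors other than Spi1, 1 rose and 2 fell in IL-4, 1 rose and 2 fell in IL-13, and 1 rose in IL-31. Irf8, which directs monocyte and dendritic cell development, fell by 1.33 ± 0.22 in IL-4 (adjusted p = 0.00133) and by 0.97 ± 0.22 in IL-13 (adjusted p = 0.00581). Cebpa, which keratinocytes also express, rose by 0.75 ± 0.17 in IL-4, 0.94 ± 0.17 in IL-13 and 0.83 ± 0.17 in IL-31.

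Markers of other leukocytes and of vessels were counted in the same comparisons. None of 12 dendritic and Langerhans cell genes passed in IL-4 or IL-31, and 1, Siglech, fell in IL-13. Of 11 T and innate lymphoid genes none passed in IL-4 or IL-31, and Gata3, which keratinocytes also express, rose in IL-13. None of 8 mast cell and basophil genes passed in any cytokine, although all 8 were below 0 in IL-4 and in IL-13. Median log2 fold changes in IL-4 and IL-13 were -0.246 and -0.29 for the dendritic and Langerhans list. They were -0.114 and -0.14 for the T and innate lymphoid list, and -0.28 and -0.6 for the mast cell and basophil list. In IL-31 these 3 lists had medians of 0.134, 0.141 and -0.2. The 1 eosinophil gene measured did not pass. Of 11 endothelial genes 3 fell in IL-4, 6 in IL-13 and none in IL-31, with Tek, a receptor of vessel endothelium, at -1.01 ± 0.26 in IL-4 and -1.0 ± 0.26 in IL-13. B and plasma cell genes were not analysed here. The difference between these lists and the monocyte and macrophage members was not tested.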

How the data were processed

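Log2 CPM values of 20 libraries and 16669 Ensembl genes were deposited by the authors as 1 table. The authors' GRCm38 build and edgeR are named in the submitters' processing notes, and the aligner, counter and strandedness are not stated there. The lowest value, -2.684, corresponds to an added offset of 0.1556 CPM, so changes of low genes are understated. Low values were whole multiples of 1 read in 79.0 to 85.0% of cases (within 0.02 reads), so no count test was run. Within groups libraries correlated at 0.931 to 0.985, and none was counted as a duplicate.

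Symbols, coordinates and exon lengths came from GENCODE M21 (16644 genes matched), and upstream sequences from RefSeq on GRCm38.p6. The planned rule for log2 values was followed. Genes of at least 0 log2 CPM in at least 5 libraries were tested with limma 3.58.1 in R 4.3.3 (1 fit of 4 groups, eBayes with trend, Benjamini-Hochberg over 16461 genes, two-sided), after a check on simulated data. A list score is the mean of gene-centred log2 CPM. Values per library are given for called members of smallest adjusted p and largest change, and for Csf1r, Spi1, Fcer1g and Tyrobp; up to 4 called genes per comparison are named from each other list, besides genes at the table's lowest value. The 4 sequences shown were chosen after values were seen. The members and lists were chosen with earlier results of these data known. Alternatives were other filters, log2(CPM + 1), quantile normalization, fitting only the groups compared, library weights, covariates, a replicate block and omitted libraries.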

Additional observations from a re-analysis of the deposited data

Results flagged for a closer look

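In 12 of 132 sets of 5 values (33 members in 4 groups) the highest or lowest library stood far from the rest by Dixon's test at 95%, where chance alone flags about 1 in 20, or 6.6. PBS replicate 5 was the high library in 5 of them. It stood at 5.72 log2 CPM for Cd68 (other PBS libraries 4.27 to 4.49), 5.49 for Fcgr3 (4.41 to 4.67), 6.51 for Ccr2 (4.09 to 4.67), 7.62 for Ctss (5.94 to 6.19) and 5.03 for Msr1 (1.73 to 2.54).

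IL-4 replicate 4 was high for Cd14 at 6.70 log2 CPM (other IL-4 libraries 2.24 to 2.69), for Lilrb4a at 5.47 (2.56 to 3.18) and for Mpeg1 at 5.83 (3.58 to 4.18). IL-13 replicate 1 was high for Lilrb4a at 6.15 log2 CPM (other IL-13 libraries 2.92 to 3.50). These libraries have neutrophil scores of 2.21 and 3.04, the highest of their groups, and the part of neutrophil RNA in these values was not tested.

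The last 3 were Adgre1 in IL-4 replicate 1, low at 2.11 log2 CPM (others 3.22 to 3.64), Cd163 in IL-4 replicate 3, high at 5.04 (others 4.25 to 4.44), and Spi1 in IL-31 replicate 4, low at 3.95 (others 4.14 to 4.22).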

How the results depend on the processing

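The count of members lower was 23 in IL-4 and 16 in IL-13 against PBS, and 0 in the other comparisons. With no filter the counts stayed 23 and 16, where 9.53% and 9.69% of tested genes were lower. A stricter filter left them the same, where 10.5% were lower in each. With log2(CPM + 1) they were 22 and 16, where 9.77% and 10.0% were lower. In the following settings the share of all tested genes that were lower stands in parentheses for the same comparison as each count. Quantile normalization gave 17 and 10 (7.29% and 7.28%), fitting only the 2 groups compared 12 and 3 (5.68% and 4.76%), library weights 10 and 7 (7.99% and 9.67%), the neutrophil score as a covariate 15 and 14 (10.5% and 11.8%), the muscle score 0 and 0 (0.00607% in each), and omission of PBS replicates 1, 2 and 3 12 and 5 (4.66% and 1.82%). Leaving out single libraries gave 13 to 23 in IL-4, 9 to 20 in IL-13, and 0 to 1 in IL-31. Over these omissions the shares ran from 7.02% to 10.4% in IL-4, 6.46% to 13.1% in IL-13 and 0% to 6.31% in IL-31. Library weights also called 4 members lower in IL-4 against IL-31 (3.25%) and 1 in IL-13 against IL-31 (3.01%), and the neutrophil covariate called 1 in IL-4 against IL-31 (1.54%). The cause was not tested. The main fit assumed no pairing of libraries by replicate number. Of 30 same-numbered pairs, 10 had deviations correlated above 0.1 (range -0.24 to 0.49, median 0.04), and 3 of 20 libraries correlated best with their own number. The highest values were among replicate 2 of IL-13, IL-31 and PBS, at 0.402, 0.452 and 0.486. With a replicate block the counts were 22 in IL-4 (9.65%), 15 in IL-13 (9.79%) and 0 in IL-31 (1.59%).

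Signs turned in members that passed in neither fit, with values in the fit of all libraries of -0.621 to 0.12. With the muscle covariate the log2 fold change was 0.20 for Cd163, 0.194 for Cx3cr1 and 0.078 for Fcgr2b in IL-4, and 0.38 for Cd163, 0.333 for Cx3cr1, 0.108 for Fcgr2b, 0.147 for Folr2 and 0.017 for Mertk in IL-13. In IL-31 it was then 0.032 for Adgre1, 0.119 for Cd163, 0.065 for Csf1r and 0.265 for Cx3cr1. Mertk in IL-4 was at -0.016 with library weights and -0.050 with the neutrophil covariate. In IL-31, library weights gave 0.077 for Cd163 and 0.034 for Csf1r, quantile normalization gave 0.197 for Cx3cr1, and Folr2 was at -0.568 without PBS replicates 1, 2 and 3 and at -0.007 with the neutrophil covariate. Omission of single libraries ranged between -0.029 and 0.107 for Mertk in IL-4 and between -0.529 and 0.155 for Cd163 in IL-13. In IL-31 it ranged between -0.423 and 0.124 for Adgre1, -0.418 and 0.266 for Cd163, -0.222 and 0.112 for Csf1r, -0.486 and 0.017 for Ctss, -0.258 and 0.14 for Cx3cr1, -0.248 and 0.39 for Folr2, and -0.423 and 0.089 for Lyz2. The cause was not tested. Depth limits Fcgr1 and Plac8, which reached below 3 reads in IL-4 replicate 5.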
